A study of Mus with 18 samples.

Results

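The mouse mitochondrial genome carries 37 genes, and all of them were followed here in lens epithelial cells (LECs). They are 13 protein genes, 2 rRNA genes and 22 tRNA genes, the 37 of 55416 gene IDs in the count files that belong to the mitochondrial genome. That rule uses no values, although it was set with earlier results of these data known. The series is an RNA sequencing study of 18 libraries in 6 groups of 3. Each library pooled 5 lens capsules with their attached LECs. For 0 h the capsule was taken right after the lens fiber cells had been removed surgically, and for 6 h it was left in the living eye for 6 h post cataract surgery (PCS), the name given to the interval after fiber cell removal. Both eyes of a mouse were used, so capsules of the 2 times came from the same animals, although the labels do not tie a 0 h library to a 6 h library.

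All mice were labelled as strain C57BL/6 and were between 3 and 5 months of age. The WT groups were wild type. The Egr1KO mice carried a systemic Egr1 knockout, a neo cassette placed in exon 2 that leaves a truncated product, by design in every tissue of the eye. The FosBcKO mice carried floxed Fosb alleles and the MLR10-cre transgene, in which a modified αA-crystallin promoter drives cre in the lens, so other cells of the eye kept Fosb. The FosBcKO groups thus differed from WT at least in the floxed allele and in the cre transgene together, and libraries with cre alone were not analysed here. In the paper, the stock name of the Egr1KO line holds a second strain beside C57BL/6. The cre line came on an FVB/N background and was backcrossed to C57BL/6. Differences in strain background that may remain between the groups were not tested. The paper reports loss of Egr1 protein in the Egr1KO mice. For FosBcKO it reports deletion of the floxed region in lens DNA and loss of FosB protein. The counts of the targeted genes showed no clear loss in the libraries so labelled. Egr1 (ENSMUSG00000038418) had 746 to 1720 counts in WT and 1109 to 3489 in Egr1KO at 0 h, and 15087 to 21706 against 28890 to 45091 at 6 h, when every library labelled Egr1KO lay above every WT library. Fosb (ENSMUSG00000003545) had 74 to 275 counts in WT and 51 to 187 in FosBcKO at 0 h, and 8045 to 16326 against 16544 to 20682 at 6 h, when the libraries labelled FosBcKO were above WT in counts and overlapped it in counts scaled to library size. These are counts over the whole gene, and whether the disrupted part was transcribed was not tested. They therefore cannot show whether the gene was disrupted. Egr1KO and FosBcKO are used below as names for the libraries so labelled. The defining markers of LECs and of other cells of the capsule were not analysed here.

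Mitochondrial DNA encodes a small set of core subunits of the respiratory chain, the rRNAs of the mitochondrial ribosome and the tRNAs that read its code. Both strands are transcribed as long precursors, and the tRNAs that lie between the other genes mark the points where the precursors are cut into single RNAs. The remaining respiratory chain subunits and every protein factor that copies, transcribes and translates this genome come from nuclear genes. In the lens, mitochondria are kept in the epithelium, whereas maturing fiber cells lose them along with their other organelles.

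The libraries held 9609295 to 13871592 gene counts each, and levels are given as CPM, each gene's count scaled to a library total of 1000000 gene counts. The 37 genes took from 3.12% to 14.0% of a library's gene counts. The rRNAs made up 85.3% of the mitochondrial counts over all libraries and the protein genes 14.7%. The libraries had been depleted of rRNA, so the rRNA counts are what the depletion left, and how well it worked in each library was not measured. In tissue RNA of this kind, fewer cells of a type and less RNA per cell cannot be told apart.

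At 0 h the shares of the 37 genes overlapped among the 3 genotypes, and at 6 h PCS they were higher in each. In WT the share was 5.0035%, 3.12% and 4.83% at 0 h and 8.42%, 6.65% and 14.0% at 6 h. In Egr1KO it was 3.97%, 4.94% and 4.08% at 0 h and 13.7%, 10.3% and 13.1% at 6 h. In FosBcKO it was 5.58%, 5.11% and 4.35% at 0 h and 12.989%, 13.4% and 11.1% at 6 h. In every genotype the lowest 6 h library lay above the highest 0 h library. Group means at 0 h and 6 h were 4.32% ± 1.04 and 9.67% ± 3.82 (WT), 4.33% ± 0.529 and 12.4% ± 1.79 (Egr1KO), and 5.01% ± 0.622 and 12.5% ± 1.25 (FosBcKO; SD, n = 3 each), and no test was run on them because the share is a sum over the chosen genes. The third WT library at 6 h, at 14.0%, stood apart from the other WT libraries. It was the highest of the series, close to the highest libraries of Egr1KO (13.7%) and FosBcKO (13.4%). Without this WT library the WT difference of 5.36 percentage points became 3.21.

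**Figure D1:**
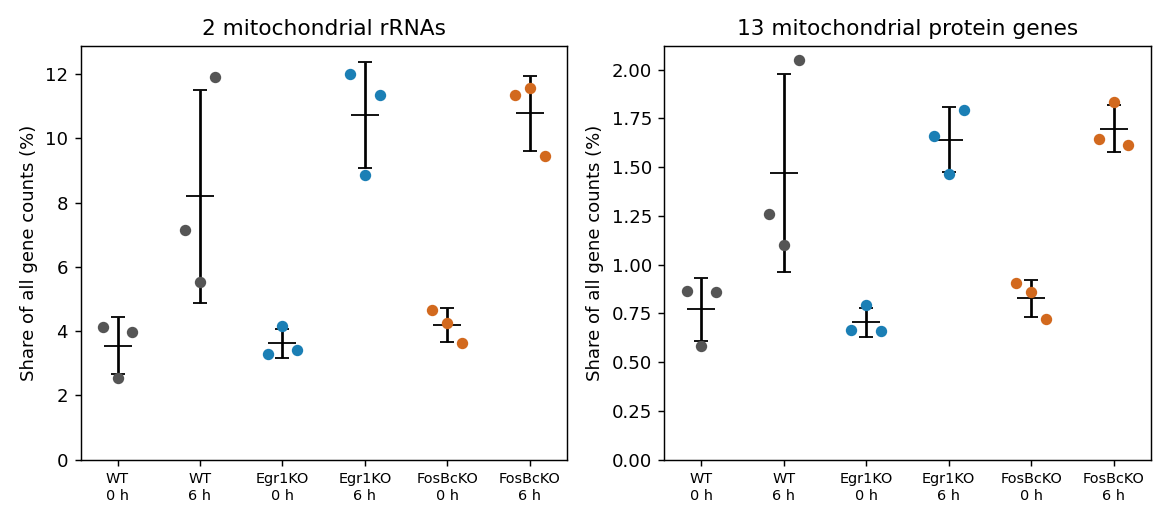
Share of all gene counts (%, vertical axis) taken by the 2 mitochondrial rRNAs (left) and by the 13 mitochondrial protein genes (right) in the 6 groups (horizontal axis). Points are the 3 libraries of a group, the horizontal bar is their mean and the error bar 1 SD; in each genotype all 6 h libraries sit above all 0 h libraries, and the WT library at 11.9% rRNA lies apart from the other WT libraries at 6 h.

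The rRNA and protein parts of the share both differed between the times. The mean rRNA share at 0 h and 6 h was 3.55% and 8.20% (WT), 3.63% and 10.7% (Egr1KO), and 4.18% and 10.8% (FosBcKO). For the protein genes it was 0.771% and 1.47% (WT), 0.705% and 1.64% (Egr1KO), and 0.828% and 1.70% (FosBcKO). The plot of shares shows no overlap of the 0 h and 6 h libraries in either part. Another property of the libraries moved with the share: read pairs that aligned outside annotated genes made up 15.2% to 19.8% of all read pairs in WT at 0 h and 23.6% to 27.4% at 6 h, and they were likewise higher at 6 h in Egr1KO (9.09% to 13.5% against 20.0% to 24.0%) and in FosBcKO (8.03% to 20.9% against 23.4% to 30.5%). Its part in the mitochondrial share was not tested. Counted over all read pairs in place of gene counts, the difference between the times was 2.71 percentage points for WT, 4.32 for Egr1KO and 3.84 for FosBcKO.

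The protein genes fell into a set with many counts and a set with almost none, and the split followed their place in the genome. The 7 genes mt-Nd1, mt-Nd2, mt-Co1, mt-Nd4, mt-Nd5, mt-Nd6 and mt-Cytb each had at least 500 counts in every library and together held 99.87% of the protein gene counts. The other 6, mt-Co2, mt-Atp8, mt-Atp6, mt-Co3, mt-Nd3 and mt-Nd4l, lie next to each other between mt-Co1 and mt-Nd4 and held 0.134%. Per kilobase of gene length, WT at 0 h gave mt-Cytb 1674 ± 324 CPM per kb, mt-Nd1 1132 ± 201, mt-Co1 1084 ± 264 and mt-Nd5 936 ± 213 (mean ± SD, n = 3). The levels of mt-Nd2, mt-Nd4 and mt-Nd6 were lower at 575 ± 91.9, 466 ± 105 and 158 ± 39.6 CPM per kb. In mean ± SD, mt-Nd1, mt-Co1 and mt-Nd5 overlapped each with the next, as did mt-Nd2 and mt-Nd4, whereas mt-Cytb lay above the others. mt-Nd6, the one protein gene on the strand with few genes, lay below the rest of the 7.

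In the same WT libraries mt-Co2 stood at 2.59 ± 1.01 CPM per kb, mt-Atp6 at 1.24 ± 0.0845, mt-Co3 at 0.764 ± 0.502, mt-Nd4l at 0.531 ± 0.378, mt-Nd3 at 0.170 ± 0.295 and mt-Atp8 at 0.145 ± 0.252. These genes are cut from the same precursor as their abundant neighbours. The counting kept only read pairs with a single best placement, and 3.80% to 5.41% of the read pairs of a library were set aside as placed at several positions. RefSeq lists nuclear copies on chromosome 1 that match part of this run in size: Gm10925, which also bears the name mt-Atp6, has 681 bases like mt-Atp6, and Gm10222 has 297 bases like mt-Nd4l. From the first to the last base, that pair spans 2248 bases, and mt-Atp6 to mt-Nd4l spans 2247 bases. The counts of the 6 genes are therefore uncertain as levels of their RNA, and whether their read pairs had been set aside for this reason was not tested.

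**Figure D2:**
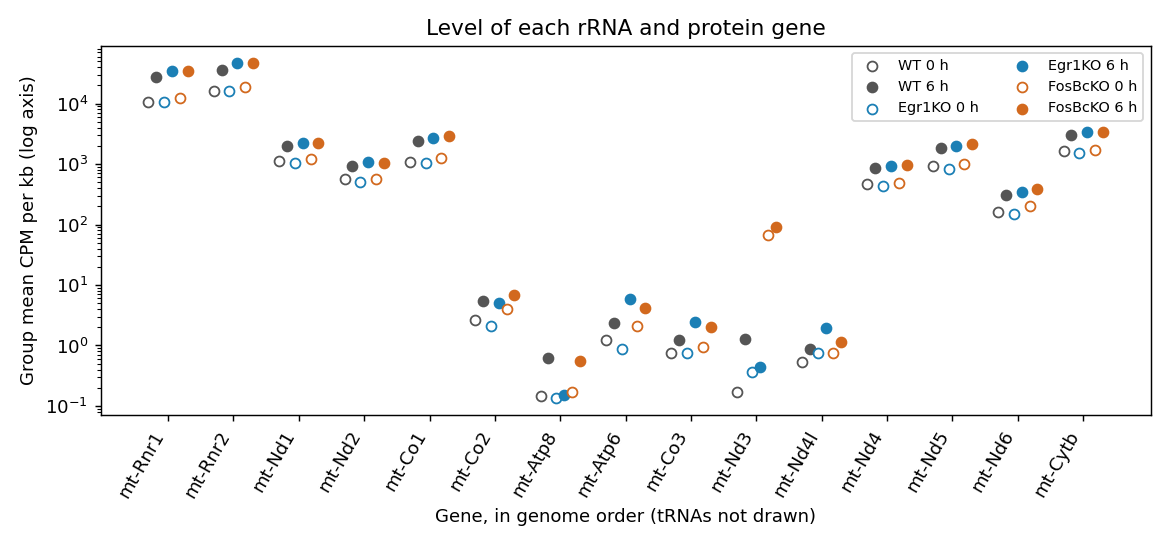
Group mean level in CPM per kb (log vertical axis) of the 2 rRNAs and 13 protein genes in genome order (horizontal axis). Open circles are 0 h and filled circles 6 h groups, coloured by genotype, each the mean of 3 libraries; groups at 0 are not drawn. The 6 genes from mt-Co2 to mt-Nd4l lie orders of magnitude below the others, apart from mt-Nd3 in FosBcKO.

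The rRNAs had the largest estimates of change among the well covered genes. mt-Rnr1 (ENSMUSG00000064337) encodes the rRNA of the small mitochondrial ribosomal subunit and mt-Rnr2 (ENSMUSG00000064339) that of the large one. In WT, mt-Rnr1 stood at 11759, 7259 and 11933 CPM at 0 h and at 21910.0, 17447 and 39048 CPM at 6 h PCS. The libraries labelled Egr1KO held mt-Rnr1 at 9133, 12218 and 9588 CPM at 0 h and 35323, 28879.5 and 34253 CPM at 6 h. Those labelled FosBcKO gave mt-Rnr1 values of 13262, 11703 and 10736 CPM at 0 h and 34912, 34362 and 29332 CPM at 6 h. In each genotype the 6 h values of mt-Rnr1 all lay above the 0 h values, with the third WT library at 6 h the highest of its group. Over the 6 h, mt-Rnr1 had a log2 fold change of 1.21 (SE 0.41, adjusted p = 0.0618) for WT, 1.74 (SE 0.19, adjusted p = 0.00197) for Egr1KO and 1.47 (SE 0.23, adjusted p = 0.00415) for FosBcKO by edgeR's quasi-likelihood F-test.

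For mt-Rnr2 the order of the libraries was similar. In WT, mt-Rnr2 stood at 29604, 18092 and 27789.5 CPM at 0 h and at 49617, 37996 and 80057 CPM at 6 h PCS. For the Egr1KO label, mt-Rnr2 read 23929.5, 29261 and 24642 CPM at 0 h and 84597, 59684 and 79123 CPM at 6 h. For the FosBcKO label, mt-Rnr2 read 33482, 30763 and 25524 CPM at 0 h and 78538, 81286 and 65089.8 CPM at 6 h. Again no 6 h value fell among the 0 h values. By edgeR's quasi-likelihood F-test, mt-Rnr2 had a log2 fold change of 1.03 (SE 0.44, adjusted p = 0.117) for WT, 1.59 (SE 0.21, adjusted p = 0.00389) for Egr1KO and 1.33 (SE 0.25, adjusted p = 0.00823) for FosBcKO. By the rule used for a call, an adjusted p no higher than 0.05 over all genes tested and a change beyond 2-fold, both rRNAs rose in Egr1KO and in FosBcKO, and neither passed in WT. With the replicate number as a block, mt-Rnr1 did pass in WT (log2 fold change 1.18, SE 0.39, adjusted p = 0.0460 by edgeR's quasi-likelihood F-test) and mt-Rnr2 did not (1.01, SE 0.44, adjusted p = 0.112 by the same test). mt-Rnr2 was the gene with the most counts of any in all 9 libraries at 6 h, and ranked 3 to 5 among all genes at 0 h.

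The rRNAs were also higher relative to the protein genes at 6 h. The ratio of rRNA to protein gene counts was 4.34 to 4.78 in WT at 0 h and 5.04 to 5.82 at 6 h. It went from a range of 4.97 to 5.24 to one of 6.04 to 7.22 in Egr1KO, and from 4.94 to 5.17 to 5.85 to 6.91 in FosBcKO, with no overlap in any genotype. The ratio of mt-Rnr2 to mt-Rnr1 counts had lower means at 6 h, of 2.45 ± 0.102 and 2.16 ± 0.108 for WT, 2.53 ± 0.118 and 2.26 ± 0.170 for Egr1KO and 2.51 ± 0.126 and 2.28 ± 0.0773 for FosBcKO (SD, n = 3). Since the libraries were depleted of rRNA, a change in the RNA and a change in what the depletion left cannot be told apart in these ratios.

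The comparison of 6 h with 0 h asked which of the genes changed after fiber cell removal within a genotype. Of the 37 genes, 14 passed the filter on low counts for WT, 15 for Egr1KO and 16 for FosBcKO. In WT no member was called by edgeR's quasi-likelihood F-test, whereas 17.1% of all genes tested were called and 13.5% were called higher; 9 of the 14 members tested had an unadjusted p under 0.05, as did 41.2% of all genes tested. In Egr1KO 12 members rose and none fell: both rRNAs, all 7 well covered protein genes, mt-Atp6, mt-Ty and mt-Tp. Over all genes tested in Egr1KO, 12% were called and 9.28% were called higher. In FosBcKO 5 members rose and none fell, namely mt-Rnr1, mt-Rnr2, mt-Co1, mt-Nd4 and mt-Nd5, where 13.1% of all genes were called and 11.2% were called higher. All 9 well covered members, the rRNAs and the 7 protein genes, lay higher in all 6 h libraries than in any 0 h library in each genotype, as did 28.2% of the genes tested for WT, 18.1% for Egr1KO and 22.8% for FosBcKO.

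The WT result was the least settled. At an adjusted p of at most 0.05 without a fold limit, mt-Nd6 passed in WT, where 16.5% of all genes did in that direction, and in FosBcKO 10 members did, against 14.1%. Whether replicate numbers pair the WT libraries was not settled by the correlation of their deviations. With that number as a block, mt-Rnr1 was the 1 member called in WT. With edgeR's exact test or with DESeq2, 3 WT members were called, mt-Rnr1, mt-Rnr2 and mt-Co1. The FosBcKO count of 5 also moved with single libraries: it was 2 without the third 0 h library, 3 without the second 0 h or the second 6 h library and 7 without the first 6 h library.

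**Figure D3:**
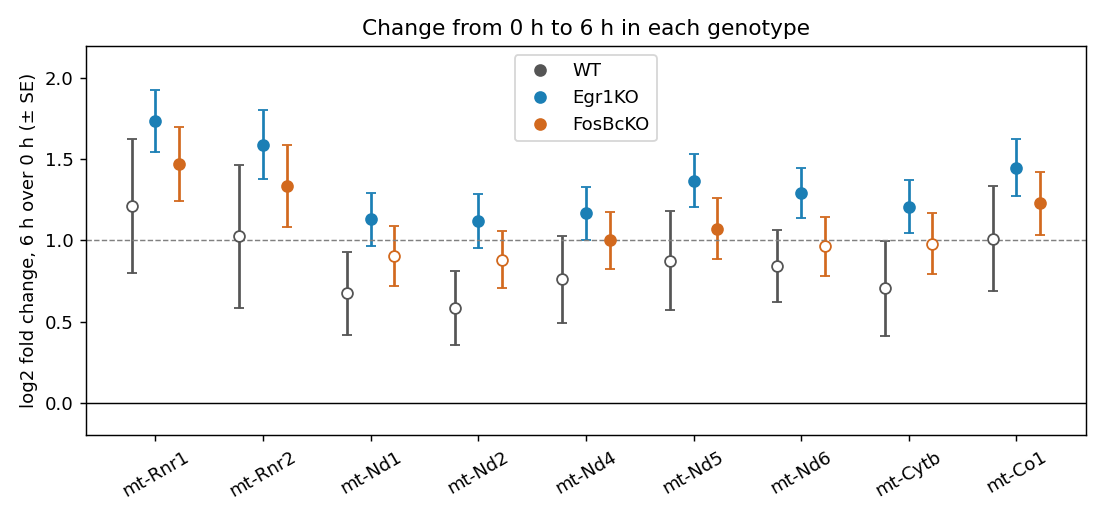
log2 fold change from 0 h to 6 h PCS (vertical axis; bars are ± 1 SE of the edgeR fit) of the 2 rRNAs and 7 well covered protein genes (horizontal axis) in WT, Egr1KO and FosBcKO. Filled points were called; the dashed line marks 2-fold. In each gene WT has the smallest estimate and Egr1KO the largest, from 0.59 for mt-Nd2 in WT to 1.74 for mt-Rnr1 in Egr1KO.

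Complex I, the NADH dehydrogenase that feeds electrons into the chain, has 7 subunits from this genome, and 5 of them were well covered. mt-Nd1 (ENSMUSG00000064341) encodes a membrane subunit at the quinone site. In WT, mt-Nd1 stood at 1189.6, 861 and 1200.1 CPM at 0 h and at 1629, 1509 and 2506 CPM at 6 h PCS. Under Egr1KO, mt-Nd1 measured 972, 1132 and 930.2 CPM at 0 h and 2201, 1863 and 2282 CPM at 6 h. Under FosBcKO, mt-Nd1 measured 1238, 1249 and 946 CPM at 0 h and 2052, 2319.5 and 1995 CPM at 6 h. The 6 h libraries were higher throughout, and the WT groups were separated by the smallest gap. For mt-Nd1 the log2 fold change was 0.68 (SE 0.26, adjusted p = 0.083) for WT, 1.13 (SE 0.16, adjusted p = 0.00489) for Egr1KO and 0.90 (SE 0.19, adjusted p = 0.0105) for FosBcKO by edgeR's quasi-likelihood F-test.

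mt-Nd2, mt-Nd4 and mt-Nd5 encode membrane subunits of the proton-pumping arm. mt-Nd2 (ENSMUSG00000064345) had the smallest change of the 7 genes in each genotype. In WT, mt-Nd2 stood at 652, 487 and 652 CPM at 0 h and at 813, 826 and 1279 CPM at 6 h PCS. mt-Nd2 in the libraries labelled Egr1KO was at 507, 608 and 479.6 CPM at 0 h and 1211, 977 and 1122 CPM at 6 h. mt-Nd2 in those labelled FosBcKO was at 628, 599.7 and 533 CPM at 0 h and 946, 1169 and 1104 CPM at 6 h. Its 0 h and 6 h values did not overlap in any genotype. Over the 6 h, mt-Nd2 had a log2 fold change of 0.59 (SE 0.23, adjusted p = 0.0914) for WT, 1.12 (SE 0.16, adjusted p = 0.00506) for Egr1KO and 0.88 (SE 0.17, adjusted p = 0.00911) for FosBcKO by edgeR's quasi-likelihood F-test.

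mt-Nd4 (ENSMUSG00000064363) sat close to the 2-fold limit in FosBcKO. In WT, mt-Nd4 stood at 754, 479 and 693 CPM at 0 h and at 1036, 887 and 1631 CPM at 6 h PCS. The libraries labelled Egr1KO held mt-Nd4 at 570.3, 664 and 584 CPM at 0 h and 1344, 1138 and 1421 CPM at 6 h. Those labelled FosBcKO gave mt-Nd4 values of 732, 729 and 572 CPM at 0 h and 1275, 1465 and 1298 CPM at 6 h. All 6 h libraries were again above the 0 h libraries of their genotype. By edgeR's quasi-likelihood F-test, mt-Nd4 had a log2 fold change of 0.76 (SE 0.27, adjusted p = 0.068) for WT, 1.17 (SE 0.16, adjusted p = 0.0043) for Egr1KO and 1.00 (SE 0.18, adjusted p = 0.00616) for FosBcKO. The FosBcKO call of mt-Nd4 was lost in 6 of the other settings tried on all libraries, with estimates of 0.96 to 1.00, which fell on the other side of the 2-fold limit.

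mt-Nd5 (ENSMUSG00000064367) is the longest of the protein genes. In WT, mt-Nd5 stood at 1882, 1263 and 1979 CPM at 0 h and at 2897, 2529.6 and 4806 CPM at 6 h PCS. For the Egr1KO label, mt-Nd5 read 1461, 1611 and 1395 CPM at 0 h and 3628, 3295 and 4118 CPM at 6 h. For the FosBcKO label, mt-Nd5 read 2028, 1858 and 1657 CPM at 0 h and 3654, 4184 and 3741 CPM at 6 h. The lowest 6 h value in each genotype exceeded the highest 0 h value. For mt-Nd5 the log2 fold change was 0.87 (SE 0.31, adjusted p = 0.066) for WT, 1.37 (SE 0.16, adjusted p = 0.00257) for Egr1KO and 1.07 (SE 0.19, adjusted p = 0.00605) for FosBcKO by edgeR's quasi-likelihood F-test.

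mt-Nd6 (ENSMUSG00000064368) is transcribed from the opposite strand to the other 12 protein genes and had the fewest counts of the 7. In WT, mt-Nd6 stood at 101, 60.3 and 85.0 CPM at 0 h and at 136, 133 and 211 CPM at 6 h PCS. Under Egr1KO, mt-Nd6 measured 80.9, 80.0 and 70.5 CPM at 0 h and 198, 161 and 183 CPM at 6 h. Under FosBcKO, mt-Nd6 measured 110.0, 105 and 94.6 CPM at 0 h and 162, 232 and 203 CPM at 6 h. The 0 h and 6 h groups did not overlap in any genotype. Over the 6 h, mt-Nd6 had a log2 fold change of 0.84 (SE 0.22, adjusted p = 0.0272) for WT, 1.29 (SE 0.15, adjusted p = 0.00247) for Egr1KO and 0.96 (SE 0.18, adjusted p = 0.00768) for FosBcKO by edgeR's quasi-likelihood F-test. In WT it was the gene that passed the adjusted p limit, at less than 2-fold.

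Complex III, the cytochrome bc1 complex, has 1 subunit from this genome, cytochrome b. Its gene mt-Cytb (ENSMUSG00000064370) had the highest level per kb of the protein genes. In WT, mt-Cytb stood at 2175, 1490.0 and 2079 CPM at 0 h and at 2931, 2552 and 4709.6 CPM at 6 h PCS. mt-Cytb in the libraries labelled Egr1KO was at 1586, 1940.1 and 1636 CPM at 0 h and 3797, 3459 and 4156 CPM at 6 h. mt-Cytb in those labelled FosBcKO was at 2134, 2028 and 1734 CPM at 0 h and 3678, 4148 and 3718 CPM at 6 h. No 6 h library was as low as a 0 h library of its genotype. By edgeR's quasi-likelihood F-test, mt-Cytb had a log2 fold change of 0.70 (SE 0.29, adjusted p = 0.107) for WT, 1.21 (SE 0.16, adjusted p = 0.00394) for Egr1KO and 0.98 (SE 0.19, adjusted p = 0.00842) for FosBcKO.

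Complex IV, cytochrome c oxidase, which passes electrons to oxygen, has its 3 core subunits from this genome, of which mt-Co1 (ENSMUSG00000064351) was well covered. In WT, mt-Co1 stood at 1902, 1204 and 1919 CPM at 0 h and at 3162, 2559 and 5327 CPM at 6 h PCS. The libraries labelled Egr1KO held mt-Co1 at 1468, 1870.3 and 1503 CPM at 0 h and 4230.4, 3748 and 4657 CPM at 6 h. Those labelled FosBcKO gave mt-Co1 values of 2141, 1993 and 1640.1 CPM at 0 h and 4610.1, 4801 and 4034 CPM at 6 h. The 6 h values were all above the 0 h values of the genotype, and the third WT library at 6 h was higher than every other library. For mt-Co1 the log2 fold change was 1.01 (SE 0.32, adjusted p = 0.0514) for WT, 1.45 (SE 0.17, adjusted p = 0.00268) for Egr1KO and 1.23 (SE 0.19, adjusted p = 0.00443) for FosBcKO by edgeR's quasi-likelihood F-test. Of the 7 protein genes mt-Co1 had the largest estimate in each genotype.

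The make-up of the protein gene counts differed between the times, with mt-Co1 taking a larger part at 6 h. As a share of the counts of the 13 protein genes, mt-Co1 took 20.6% to 22.3% in WT at 0 h and 23.3% to 26.0% at 6 h. The mt-Co1 share was 22.1% to 23.6% and 25.5% to 26.0% in Egr1KO, and 22.8% to 23.7% and 25.0% to 28.1% in FosBcKO. Conversely, mt-Cytb took 24.1% to 25.5% in WT at 0 h and 23.0% to 23.2% at 6 h, and mt-Nd1 took 13.7% to 14.7% at 0 h and 12.2% to 13.7% at 6 h. The shares of mt-Cytb and mt-Nd1 were lower in all 6 h libraries than in any 0 h library in Egr1KO and FosBcKO too. At 0 h and 6 h, mt-Nd2 took 7.53% to 8.32% and 6.24% to 7.51% in WT. Its share was 6.94% to 7.40% and 5.76% to 6.84% in FosBcKO. In Egr1KO the mt-Nd2 shares overlapped, at 7.27% to 7.68% and 6.25% to 7.28%. These shares sum to 100% within a library, so they describe unequal change among the genes and carry no test.

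**Figure D4:**
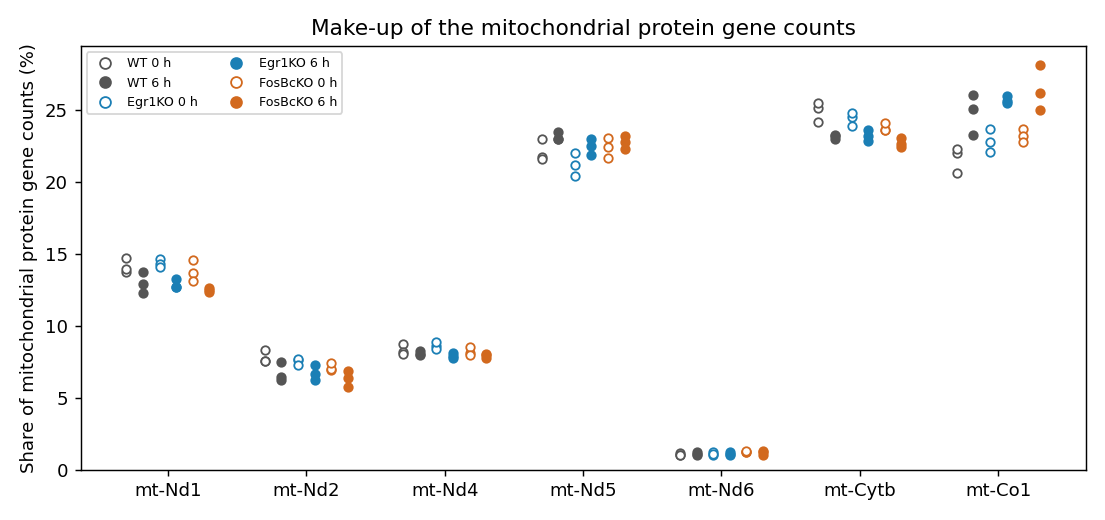
Share of the counts of the 13 mitochondrial protein genes (%, vertical axis) taken by each of the 7 well covered genes (horizontal axis) in each library. Open points are 0 h and filled points 6 h libraries, coloured by genotype; mt-Co1 is higher and mt-Cytb and mt-Nd1 lower at 6 h in each genotype, with mt-Co1 reaching 28.1% in a FosBcKO library.

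The other complex IV and the complex V genes had too few counts for firm comparison. mt-Co2, whose protein takes electrons from cytochrome c, had 9 to 68 counts per library, and mt-Co3, another core subunit, had 4 to 27. mt-Atp8 and mt-Atp6, which encode membrane subunits of ATP synthase, had 0 to 3 and 4 to 116 counts per library, and mt-Nd4l of complex I had 0 to 15. mt-Co2 and mt-Co3 passed the filter in all 3 comparisons of the times and were called in none of them by the quasi-likelihood F-test or DESeq2. edgeR's exact test called mt-Co3 in Egr1KO (log2 fold change 1.72, adjusted p = 0.0376) and mt-Co2 in no genotype. The 4 genes other than mt-Nd3 and mt-Atp6 are shown with the rest in the plot of levels per kb.

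mt-Atp6 (ENSMUSG00000064357) was called in Egr1KO, but through 1 library. Its counts were 7, 4 and 8 in Egr1KO at 0 h and 21, 116 and 14 at 6 h. In WT they were 9, 10 and 8 at 0 h and 27, 5 and 19 at 6 h, and in FosBcKO 30, 7 and 9 and 23, 36 and 40. The second Egr1KO library at 6 h thus held most of the mt-Atp6 counts of its group. The Egr1KO estimate was 2.71 (SE 0.80, adjusted p = 0.0449) on the log2 scale by edgeR's quasi-likelihood F-test. Without that library it was 1.60 (adjusted p = 0.215), and the call was also lost without any one of the 3 libraries at 0 h or without the third at 6 h.

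The tRNAs had very few counts in these libraries, and those counts fell mostly on the genes of 1 strand. The tRNA genes are 59 to 75 bases long, and the counting left out read pairs that matched several genes. The counts are therefore uncertain as levels of tRNA. How far the counting made them low or uneven between the strands was not tested. How far RNA this short was kept in extraction and library preparation was not measured either. Of the 22 tRNA genes, 12 had no count in any library. Of the 3341 tRNA counts over all libraries, 94.4% fell on the 8 tRNA genes of the strand that also carries mt-Nd6, and 5.63% on the 14 genes of the other strand. The 3 tRNAs with the highest mean CPM, mt-Ty for tyrosine, mt-Tp for proline and mt-Tq for glutamine, are all on the strand of mt-Nd6. If read pairs were counted by strand, those on these tRNAs lie opposite to the precursor with most of the genes. The strand setting of the counting was not checked.

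mt-Ty (ENSMUSG00000064350) lies beside mt-Co1 and reads in the opposite direction. In WT, mt-Ty stood at 7.28, 4.89 and 6.42 CPM at 0 h and at 10.7, 7.26 and 13.8 CPM at 6 h PCS. For the Egr1KO label, mt-Ty read 2.86, 5.09 and 5.72 CPM at 0 h and 17.8, 10.5 and 20.7 CPM at 6 h. For the FosBcKO label, mt-Ty read 7.76, 7.26 and 6.50 CPM at 0 h and 13.3, 17.8 and 10.6 CPM at 6 h. Its 6 h libraries lay above the 0 h libraries in Egr1KO and FosBcKO and overlapped them in WT. Over the 6 h, mt-Ty had a log2 fold change of 0.65 (SE 0.30, adjusted p = 0.137) for WT, 1.92 (SE 0.39, adjusted p = 0.0145) for Egr1KO and 0.97 (SE 0.29, adjusted p = 0.0387) for FosBcKO by edgeR's quasi-likelihood F-test. The FosBcKO estimate passed the adjusted p limit and not the fold limit.

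mt-Tp (ENSMUSG00000064372) is the last gene before the control region. In WT, mt-Tp stood at 3.73, 4.0002 and 3.99 CPM at 0 h and at 2.64, 5.85 and 6.01 CPM at 6 h PCS. Under Egr1KO, mt-Tp measured 1.80, 1.63 and 1.46 CPM at 0 h and 8.81, 6.56 and 7.25 CPM at 6 h. Under FosBcKO, mt-Tp measured 1.87, 4.25 and 4.85 CPM at 0 h and 4.46, 6.9995 and 4.81 CPM at 6 h. In Egr1KO the 6 h values were all more than 3 times the highest 0 h value, whereas in WT and FosBcKO the times overlapped. By edgeR's quasi-likelihood F-test, mt-Tp had a log2 fold change of 0.19 (SE 0.40, adjusted p = 0.751) for WT, 2.26 (SE 0.37, adjusted p = 0.00755) for Egr1KO and 0.58 (SE 0.47, adjusted p = 0.391) for FosBcKO. mt-Tq, with 2 to 40 counts per library, was called in no comparison of the times.

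The genotype comparisons asked whether LECs labelled Egr1KO or FosBcKO differed from WT in these genes before or after surgery. At 0 h, 13 members were tested between Egr1KO and WT and none was called by edgeR's exact test, where 0.41% of all genes were; 1 of them, mt-Tp, had an unadjusted p under 0.05, as did 6.4% of all genes, and neither the quasi-likelihood F-test nor DESeq2 called any. The 7 well covered protein genes differed by −0.17 to −0.03 on the log2 scale, with a median of −0.08 against 0.0053 over all genes tested, and every one of them overlapped between the groups. At 6 h, 15 members were tested and again none was called by the exact test, the quasi-likelihood F-test or DESeq2, against 0.736% of all genes by the exact test, and 1 member, mt-Ty, had an unadjusted p under 0.05, as did 9.67% of all genes. The estimates for the 7 genes were 0.35 to 0.44 with SEs of 0.23 to 0.35 and adjusted p of 0.700 to 0.815, and the WT libraries spanned those of Egr1KO. mt-Tp, a proline tRNA, was the only member tested between Egr1KO and WT whose libraries did not overlap at either time: all Egr1KO libraries lay below WT at 0 h (log2 difference -1.23, SE 0.44, adjusted p = 0.434 by the exact test), as 9.32% of the genes tested did, and above WT at 6 h (0.87, SE 0.41, adjusted p = 0.552 by the exact test), as 3.17% did. At 6 h mt-Tq, a glutamine tRNA, lay below WT (-0.72, SE 0.52, adjusted p = 0.76 by the exact test), as 13.8% of the genes tested did. In the comparison at 6 h the third WT library was the highest in mt-Co1 and mt-Rnr1 among these 6, and the difference in share of 2.70 percentage points was 4.84 without it and 1.18 without the second WT library.

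FosBcKO against WT gave a similar picture for the 7 genes. At 0 h they differed by −0.03 to 0.33 on the log2 scale, with a median of 0.07 against −0.0069 over all genes tested. At 6 h the estimates were 0.29 to 0.48, with a median of 0.34 against 0.0044 over all genes tested and adjusted p of 0.438 to 0.714 by edgeR's exact test. None of the 7 was called and each overlapped between the groups at both times. The difference in share at 6 h was 2.81 percentage points, 4.95 without the third WT library and 1.30 without the second. Of the 14 members tested at 0 h and the 17 tested at 6 h, 1 was called at each time, and it was mt-Nd3 both times, which also lay above WT in every library, as 7.63% of the genes tested did at 0 h and 9.99% at 6 h; mt-Co3 was the other member with no overlap at 6 h (0.85, SE 0.57, adjusted p = 0.546 by the exact test). Over all genes tested, 0.295% were called at 0 h and 5.41% at 6 h.

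mt-Nd3 (ENSMUSG00000064360), which encodes a small complex I subunit with a loop near the quinone site, separated the FosBcKO libraries from all others. Its counts were 0, 2 and 0 in WT at 0 h and 2, 4 and 8 at 6 h. In Egr1KO they were 1, 2 and 1 at 0 h and 1, 1 and 3 at 6 h. In FosBcKO they were 299, 226 and 209 at 0 h and 343, 365 and 414 at 6 h. All 6 FosBcKO libraries held at least 209 counts and the other 12 held at most 8. Over the pooled counts per group, 734 against 2 at 0 h, the level in FosBcKO was 376.5 times that in WT (95% exact interval 103.9 to 3115, counting error only). At 6 h, with 1122 against 14 counts, it was 71.3 times (42.3 to 131). edgeR's exact test gave log2 fold changes of 8.30 at 0 h (SE 0.52, adjusted p = 2.815e-45) and 6.26 at 6 h (SE 0.39, adjusted p = 3.30e-42), estimates that depend on the prior count where WT is near 0. The SEs are derived from the F statistic of the quasi-likelihood fit. By the quasi-likelihood F-test the adjusted p was weaker, 9.411e-06 at 0 h and 0.0004794 at 6 h. With 1 library left out, the exact test's log2 fold change ranged from 7.80 to 10.93 at 0 h and from 5.91 to 6.78 at 6 h. Against Egr1KO, the pooled level in FosBcKO was 190.1 times as high at 0 h (73.9 to 699.5) and 223 times at 6 h (95.2 to 687). The FosBcKO mice differed from WT in the floxed allele, the cre transgene and possibly strain background together. Which of these went with the difference in mt-Nd3 was not tested.

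A gene that is no member showed the opposite pattern. ENSMUSG00000101939, which the study's annotation names Gm28438 and places on chromosome 1, was chosen after its values had been seen. It was known from the study's supplementary tables to move opposite to mt-Nd3, so this pattern is the ground of its choice. It was also the only feature lower in FosBcKO among 8 features called at both times with a log2 fold change beyond 4. Its counts were 324, 264 and 299 in WT at 0 h and 599, 262 and 656 at 6 h. In Egr1KO they were 378, 239 and 227 at 0 h and 703, 774 and 488 at 6 h. In FosBcKO they were 4, 1 and 3 at 0 h and 39, 1 and 5 at 6 h. The libraries with few counts of mt-Nd3 were those with many of this gene, and the reverse. mt-Nd3 made up 0% to 1.504% of the sum of both for WT, 0.129% to 0.830% for Egr1KO and 89.8% to 99.7% for FosBcKO.

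**Figure D5:**
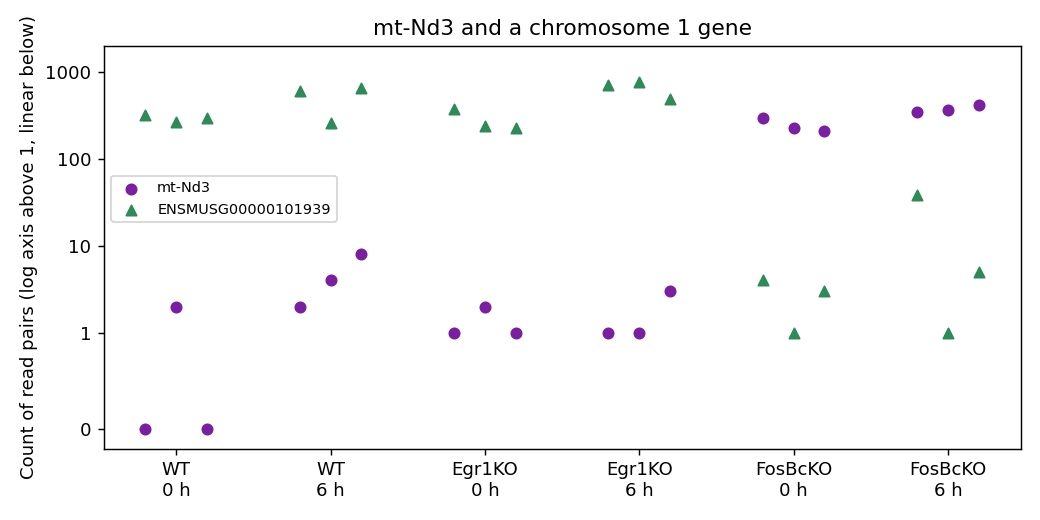
Counts of read pairs (vertical axis, logarithmic above 1 and linear below) of mt-Nd3 (circles) and of ENSMUSG00000101939 (triangles) in the 3 libraries of each group (horizontal axis). In WT and Egr1KO mt-Nd3 stays at 0 to 8 counts and the other gene at 227 to 774, and in FosBcKO mt-Nd3 is at 209 to 414 and the other gene at 1 to 39.

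Summed, the pair no longer differed by a call between FosBcKO and WT, a sum chosen after the values had been seen. The summed level was 27.9 ± 3.82 CPM in WT and 23.7 ± 3.25 in FosBcKO at 0 h, and 48.9 ± 19.4 and 33.5 ± 2.27 CPM at 6 h (SD, n = 3). Egr1KO stood at 25.9 ± 4.34 CPM at 0 h and 57.3 ± 11.8 at 6 h. The log2 difference of the sum between FosBcKO and WT was −0.24 (SE 0.16, adjusted p = 1) at 0 h and −0.40 (SE 0.28, adjusted p = 0.627) at 6 h by edgeR's exact test. From 0 h to 6 h the sum changed by 0.69 in WT (SE 0.28, adjusted p = 0.0988), by 1.20 in Egr1KO (SE 0.21, adjusted p = 0.00912) and by 0.50 in FosBcKO (SE 0.17, adjusted p = 0.0606) on the log2 scale by the quasi-likelihood F-test. Whether read pairs of 1 gene were assigned to the other was not tested, since no sequence was at hand, and the difference in mt-Nd3 is a difference in counts assigned to it. The other 6 of the 8 features were higher in FosBcKO, and none of them is a member.

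Whether the change from 0 h to 6 h differed between genotypes was tested as an interaction over all 18 libraries, in which 17 members were tested. None was called against WT in Egr1KO or in FosBcKO by edgeR's quasi-likelihood F-test or by DESeq2, and the F-test called none of the 17469 genes tested. At an unadjusted p under 0.05, 2 members passed for Egr1KO, where 6.53% of all genes did, and 1 member passed for FosBcKO, where 6.7% did. They were mt-Tp (log2 difference 2.05, SE 0.58, adjusted p = 0.618) and mt-Ty (1.24, SE 0.47, adjusted p = 0.719) in Egr1KO, and mt-Nd3 (−2.12, SE 0.84, adjusted p = 0.658) in FosBcKO. For the 7 well covered protein genes the change was larger than in WT by 0.38 to 0.51 in Egr1KO and by 0.07 to 0.24 in FosBcKO on the log2 scale, with adjusted p of 0.772 to 0.844 and 0.898 to 0.984. The calls in Egr1KO and FosBcKO that WT lacked are thus not shown to be differences between the genotypes.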

How the data were processed

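Total RNA of pooled lens capsules was sequenced by the authors as stranded, ribodepleted, paired-end libraries. Read pairs were aligned with Hisat2 and counted per Ensembl gene by HTSeq-count in union mode. The study's methods name the GRCm38 assembly and the submitters' processing notes name GRCm39, so no coordinates are given. The authors deposited raw counts, the number of read pairs given to each gene, not normalized in any way. The counting leaves out pairs that match several places or several genes, so genes with near-identical copies are uncertain. HTSeq's summary lines name no gene and were kept out of library totals and tests. Of all read pairs, 8.03% to 30.5% fell outside annotated genes. No molecular identifiers were stated, so intervals cover counting error only.

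The 37 members were matched by genome order to the mitochondrial genes of the RefSeq table for GRCm38.p6 (37 of 37 matched), which also gave gene lengths. That table holds no Ensembl IDs. The names of Egr1, Fosb and Gm28438 come from supplementary tables of the study, held here in shortened form, which name only some genes. The nuclear respiratory chain, mitochondrial maintenance and RNA handling lists and the cell type markers were not analysed here. Members and lists were chosen with earlier results of these data known. The genes named with values in every library were both rRNAs, mt-Co1, mt-Nd3, mt-Nd6, mt-Cytb and every member called in any comparison. Of the tRNAs, the 3 with the highest mean CPM and those called were named.

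Tests were run with edgeR 4.0.16 in R 4.3.3 over all genes that passed filterByExpr, with TMM scaling and robust dispersions. The quasi-likelihood F-test compared 6 h with 0 h in the 6 libraries of a genotype, the exact test compared genotypes at a time, and an interaction was fitted over 18 libraries. A gene was called if its Benjamini-Hochberg adjusted p did not exceed 0.05 and it changed by over 2-fold. SEs were derived from the quasi-likelihood fit, as the absolute log2 fold change over the square root of the F statistic. CPM is the count scaled to 1000000 gene counts per library, and values per kb are CPM divided by gene length. The quasi-likelihood F-test, the exact test and the FosBcKO interaction were tried on simulated counts with known changes. The shares, ratios and pairing were not. DESeq2 1.42.0, other scalings and filters, a replicate block and leaving out each library were alternatives. The labels do not tie libraries to animals across times. Same-numbered WT libraries correlated in their deviations at 0.102 to 0.247 (3 of 3 pairs over 0.1), so the numbers were tried as pairs in WT. In Egr1KO 1 of 3 pairs was over 0.1 and in FosBcKO 2 of 3, so these were not taken as paired. Libraries of different genotypes and numbers, which share no animals, reached 0.33 (Egr1KO with WT) and 0.359 (FosBcKO with WT) at 6 h. Such correlations therefore do not establish a pairing. The labels call the libraries biological replicates of separate capsules.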

Additional observations from a re-analysis of the deposited data

Results flagged for a closer look

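Read pairs that aligned outside annotated genes, which enter no test above, were more frequent in every 6 h library than in any 0 h library of the same genotype. Their mean share of all read pairs at 6 h was 25.4% in WT, 21.5% in Egr1KO and 26.3% in FosBcKO. At 0 h the means were 17.8%, 11.2% and 13.2%. Their relation to the mitochondrial share was not tested.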

How the results depend on the processing

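The count of members called in WT from 0 h to 6 h, 0, became 3 with the exact test, 3 with DESeq2, 1 with RLE size factors, 1 without the filter on low counts, 1 without the fold limit, 1 with the replicate block and 4 in a fit of all 18 libraries. With the block and no fold limit, an alternative chosen after seeing the data, it was 5. For FosBcKO it became 10 without the fold limit. Leaving out 1 library gave 0 to 1 in WT (1 without the first 0 h or the second 6 h library), 10 to 12 in Egr1KO, 2 to 7 in FosBcKO, 0 to 1 in Egr1KO against WT at 6 h (mt-Ty, without the second Egr1KO library), 0 in Egr1KO against WT at 0 h and in both interactions, and 1 in FosBcKO against WT at either time. The replicate block changed no other count by over 1.5 times: it gave 11 in Egr1KO and 4 in FosBcKO. Scaling without the 37 genes moved the median of all genes by at most 0.0192 on the log2 scale and gave 0, 12 and 4 calls.

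The difference in mitochondrial share between the times became 4.32 percentage points in Egr1KO and 3.84 in FosBcKO over all read pairs, and 0.816 in WT, 1.11 in Egr1KO and 1.04 in FosBcKO for the protein genes over counts without rRNA, which by construction leave out most of the share. Leaving out 1 library it ranged from 3.21 to 6.87 for WT, 7.40 to 9.06 for Egr1KO and 7.01 to 8.19 for FosBcKO. The genotype differences ranged from −0.587 to 0.354 (Egr1KO, 0 h), 1.18 to 4.84 (Egr1KO, 6 h), 0.0924 to 1.03 (FosBcKO, 0 h) and 1.30 to 4.95 (FosBcKO, 6 h).

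Log2 fold changes under the alternatives were followed for the rRNA and protein genes, and those of the tRNAs were not. Among the genes followed, reversals were limited to mt-Nd3 summed with ENSMUSG00000101939 against WT (−0.24 at 0 h and −0.40 at 6 h) and, without 1 library, to the genes below. The latter were reported at 0.47 for mt-Co3 and −0.25 for mt-Co2 in the FosBcKO interaction and at −0.066 to 0.16 for the rest. For Egr1KO against WT at 0 h the ranges were −0.21 to 0.068 for mt-Co1, −0.22 to 0.064 for mt-Nd4, −0.23 to 0.10 for mt-Nd6, −0.16 to 0.13 for mt-Rnr1 and −0.11 to 0.19 for mt-Rnr2. At 6 h mt-Co2 ranged from −0.11 to 0.37. For FosBcKO against WT at 0 h they were −0.14 to 0.058 for mt-Nd2, −0.053 to 0.18 for mt-Nd1, −0.085 to 0.22 for mt-Nd4, −0.052 to 0.22 for mt-Nd5 and −0.10 to 0.15 for mt-Cytb. For the FosBcKO interaction they were −0.20 to 0.84 for mt-Co3, −0.12 to 0.23 for mt-Nd6, −0.62 to 0.068 for mt-Co2, −0.018 to 0.43 for mt-Co1, −0.29 to 0.94 for mt-Atp6 and −0.0053 to 0.38 for mt-Nd5. The causes of these changes were not tested.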
